A study of Mus musculus with 2 samples.

Results

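The flavin monooxygenases and aldehyde oxidases are described here through 6 genes, Fmo1, Fmo2, Fmo4, Fmo5, Aox1 and Aox3, chosen by gene symbol from the 24421 genes of the count files. Liver RNA came from male C57BL/6 mice that started a high-fat diet at 6 weeks of age and stayed on it for 12 weeks. 1 library was made from control liver that carries floxed Rora alleles (RORα f/f). The other was made from liver labelled RORα liver-specific KO, genotype RORalpha f/f:Alb-Cre, in which Cre driven by the albumin promoter acts in hepatocytes while other liver cells keep the gene. It is called the LKO-labelled library below, since the raw count of Rora, the targeted gene, was close in both libraries. Rora had 3701 counts in the control and 3677 in the LKO-labelled library. These are totals over all exons, so they do not show whether the floxed part of the gene was lost. After the TMM scaling described below, Rora was 1.38-fold lower (interval 1.32 to 1.45), and with total-count scaling its log2 ratio was −0.05. Each genotype has 1 library, so no difference between them has a replicate check and no test was possible. Every interval given is a 95% interval for counting error alone.

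Flavin monooxygenases are membrane enzymes of the endoplasmic reticulum that hold FAD, take electrons from NADPH and place an oxygen atom on the nitrogen or sulfur of drugs, amines and sulfides. Aldehyde oxidases are cytosolic enzymes that carry FAD, iron-sulfur clusters and a molybdenum cofactor, need no NADPH, and oxidise aldehydes and nitrogen-containing rings. Both families act beside the cytochromes P450 in hepatic drug metabolism. In mice, aldehyde oxidase activity of the liver is higher in males than in females.

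The coding sequence around the FAD-binding site is shown for the Fmo genes because it is the feature these members share and it also shows how far they have diverged. The stretch runs over 42 coding bases of the longest GENCODE transcript, from base 13 to base 54 counted from the A of the start codon, and from 16 to 57 in Fmo5. Capitals mark the codons of the first, the third and the sixth residue of the glycine motif that binds FAD.
Fmo1: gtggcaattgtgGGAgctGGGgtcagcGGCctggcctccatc
Fmo2: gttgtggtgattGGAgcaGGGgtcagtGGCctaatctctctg
Fmo4: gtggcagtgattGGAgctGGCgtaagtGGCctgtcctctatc
Fmo5: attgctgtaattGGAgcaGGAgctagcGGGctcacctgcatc
Of these 42 bases, 21 were the same in all 4 genes. Over the whole coding region, identity between pairs of Fmo genes ran from 62.8% to 67.2%, and the longest run of identical bases was 24, between Fmo1 and Fmo5. Aox1 and Aox3 were 69.8% identical, with a longest shared run of 20 bases. No stretch of 50 bases in the longest transcript of Fmo1, Fmo2, Fmo4, Aox1 or Aox3 occurred in a GENCODE transcript of any other gene. In Fmo5, 25 of 5148 such stretches did, none of them in another Fmo or Aox gene. A read of this length or longer that matches the longest transcript of 1 member exactly therefore does not match another member. The labels do not state the read length.

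Counts summed to 128201591 in the control and 131843686 in the LKO-labelled library. Levels are given as CPM, read counts scaled to library size, after TMM adjustment (trimmed mean of M-values), with factors of 0.865 and 1.16. Under this scaling the median log2 ratio of the 11137 measured genes, those with a mean of at least 1 CPM and a summed count of at least 20, was 0.00. All 6 members were measured, and each stood above 1 CPM in both libraries.

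Fmo2, Fmo4 and Fmo1 were higher and Aox3 was lower in the LKO-labelled library, while Fmo5 and Aox1 differed by less. Of the 6 members, 2 (Fmo2 and Fmo4) were higher by at least 1.5-fold with an interval clear of a ratio of 1, and 1 (Aox3) was lower by as much. Among all measured genes, 10.5% were called higher and 9.76% lower by that rule. At 2-fold, 1 member (Fmo2) was called higher and 0 lower, against 3.83% and 2.62% of measured genes. The median log2 ratio of the members was 0.30. With 6 members these counts are too few to be read against the background shares, and the values of single genes follow.

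**Figure D1:**
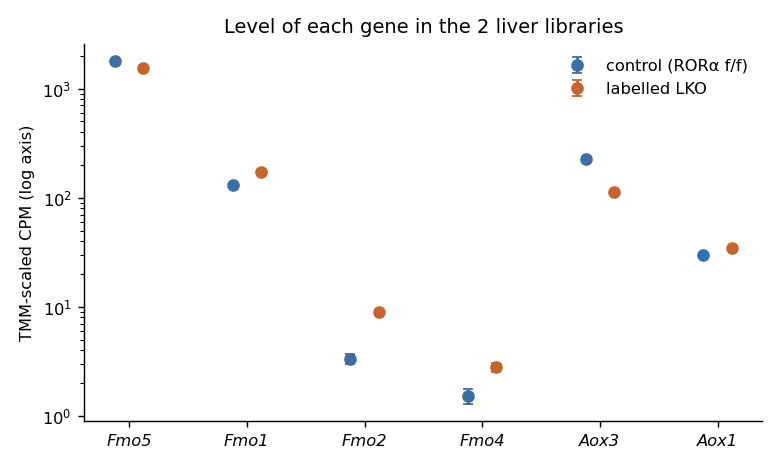
TMM-scaled CPM on a log axis of each gene in the control library (blue) and the LKO-labelled library (orange), 1 library each. Bars are exact 95% Poisson intervals for counting error and are mostly hidden by the points. Fmo5 lies near the top at 1777 and 1545 CPM, and Fmo4 at the bottom at 1.52 and 2.79 CPM.

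Fmo5 encodes an atypical flavin monooxygenase that can insert oxygen beside a carbonyl group and that accepts few classical substrates of the family. It had 196943 counts in the control and 235626 in the LKO-labelled library, or 1777 and 1545 CPM. The raw count was higher in the LKO-labelled library, and the scaled level was 1.15-fold lower (interval 1.14 to 1.16). The log2 ratio was −0.20, and with total-count scaling it turned to 0.22, so the direction for Fmo5 rests on the scaling. Of the measured genes, 31.4% had a lower ratio. Fmo5 lies at chr3:97628804-97655282 on the plus strand (mm10, annotation of GENCODE M21), apart from the other Fmo genes.

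Fmo1 encodes the broad-substrate flavin monooxygenase of mouse liver and kidney. It had 14607 and 26278 counts, or 132 CPM in the control and 172 CPM in the LKO-labelled library. This was 1.31-fold higher (interval 1.28 to 1.33), a log2 ratio of 0.39, short of 1.5-fold. The direction held under the alternatives run, from 0.37 to 0.81 on the log2 scale. Of the measured genes, 2116 had a higher ratio.

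Fmo2 encodes the flavin monooxygenase best known from the lung. Its counts were 370 in the control and 1362 in the LKO-labelled library, or 3.34 and 8.93 CPM. This was the largest difference among the members, 2.68-fold higher (interval 2.38 to 3.01), with a log2 ratio of 1.42 that ran from 1.41 to 1.84 over the scalings and corrections run. Only 204 of 11137 measured genes had a higher ratio.

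Fmo4 is a low-abundance member of the family in most tissues. With 168 and 425 counts, it stood at 1.52 CPM in the control and 2.79 CPM in the LKO-labelled library. It was 1.84-fold higher (interval 1.53 to 2.21), a log2 ratio of 0.88. As the member with the fewest counts it also had the widest interval, which includes 2-fold. Of the measured genes, 560 had a higher ratio.

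Aox3 encodes an aldehyde oxidase found mainly in the liver of mice. It had 24839 counts in the control and 17217 in the LKO-labelled library, or 224 and 113 CPM. Aox3 was the only member with fewer raw counts in the LKO-labelled library. Its scaled level was 1.98-fold lower (interval 1.95 to 2.02), at a log2 ratio of −0.99, just short of 2-fold. Over the alternatives run the log2 ratio lay between −1.02 and −0.57, so it was negative in all of them, but with total-count scaling it fell short of 1.5-fold. Of the measured genes, 302 had a lower ratio.

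Aox1 encodes the aldehyde oxidase with the wider tissue distribution. Its counts were 3301 and 5246, or 29.8 CPM in the control and 34.4 CPM in the LKO-labelled library. It was 1.16-fold higher (interval 1.11 to 1.21), with a log2 ratio of 0.21 that stayed positive, from 0.15 to 0.63, under the alternatives run. The 2 aldehyde oxidase genes thus lay on opposite sides of 0 under every scaling.

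**Figure D2:**
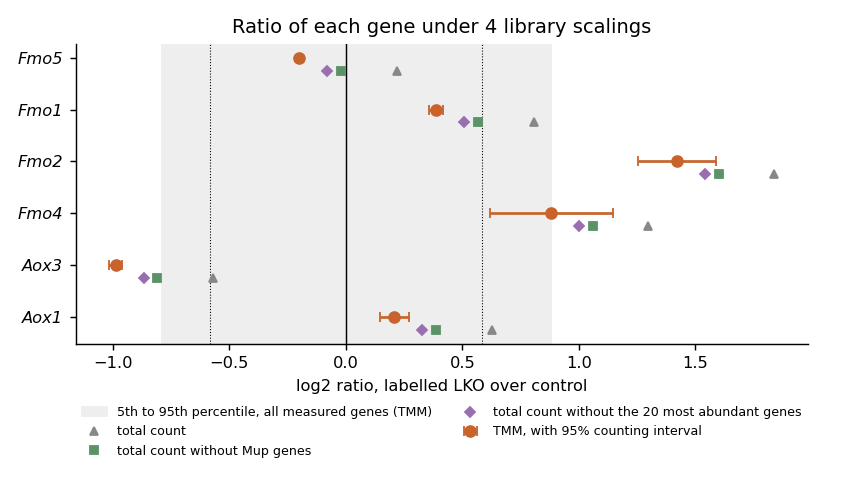
Log2 ratio of each gene, LKO-labelled over control. Orange points are TMM values with 95% counting intervals, and the smaller symbols below them use 3 other library scalings. The grey band runs from −0.79 to 0.88, the 5th to 95th percentile of all measured genes, and dotted lines mark 1.5-fold. Fmo2 lies above and Aox3 below the band with TMM scaling, and Fmo5 changes sign with total-count scaling.

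**Figure D3:**
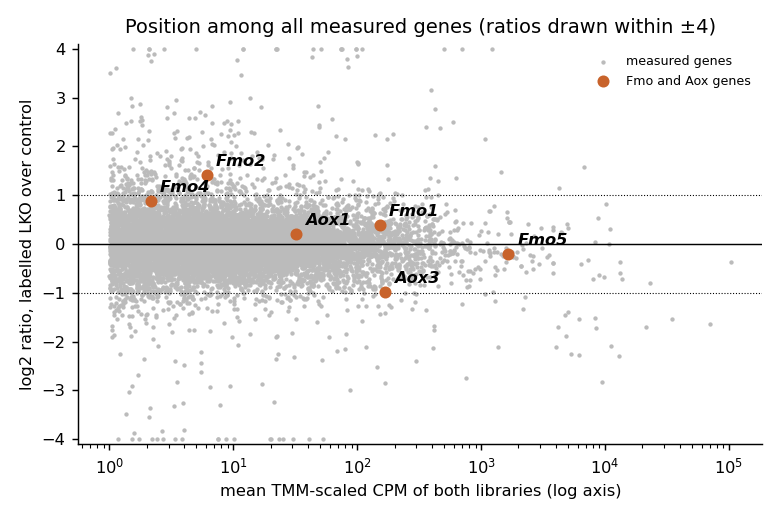
Log2 ratio, LKO-labelled over control, against mean CPM of both libraries on a log axis, for 11137 measured genes (grey) and the 6 members (orange). Genes beyond 4 in either direction are drawn at the edge and dotted lines mark 2-fold. Fmo2 at 1.42 and Aox3 at −0.99 lie at the rim of the cloud and the other members inside it.

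A difference between the log2 ratios of any pair of genes does not depend on library scaling. All 15 pairs of members were compared, and in all 15 the counting interval of the difference excluded 0. Intervals this narrow follow from the depth and hold no spread between animals. Within the aldehyde oxidases, Aox3 had 7.52 times the counts of Aox1 in the control and 3.28 times in the LKO-labelled library. The ratio between them thus shifted 2.29-fold (interval 2.19 to 2.40) toward Aox1. Within the flavin monooxygenases, the shift between Fmo2 and Fmo5 was 3.08-fold (interval 2.74 to 3.45) toward Fmo2. Against Fmo5, Fmo4 shifted by 1.08 (interval 0.82 to 1.34) and Fmo1 by 0.59 (interval 0.56 to 0.62) on the log2 scale. All 3 Fmo genes of chromosome 1 therefore gained on Fmo5, whichever scaling is used.

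Levels can be compared between genes only per length of transcript. Per kilobase of the longest GENCODE transcript, the order in the control was Fmo5 at 342 CPM per kb, Fmo1 at 55.2, Aox3 at 48.6, Aox1 at 6.73, Fmo2 at 0.821 and Fmo4 at 0.565. In the LKO-labelled library the order was the same, at 297, 72.2, 24.5, 7.78, 2.20 and 1.04 CPM per kb. The close neighbours Fmo1 and Aox3 of the control were 1.70-fold apart in raw counts in the other order, so their rank rests on the length used. Per kilobase of coding sequence the order was also the same, but Fmo5 then stood at 1111 and Fmo1 at 82.6 CPM per kb in the control. RefSeq lists 4 curated transcripts for Fmo5, 3 each for Fmo1 and Fmo2, and 1 each for Fmo4, Aox1 and Aox3. If the deposited counts were summed over transcripts, the levels of the first 3 are too high beside the others. This was not tested for single genes, and it would touch levels more than ratios.

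Fmo5 made up most of the flavin monooxygenase message in both libraries. Its share of the summed Fmo level per kilobase of transcript was 85.8% in the control and 79.8% in the LKO-labelled library, and per kilobase of coding sequence 92.9% and 89.3%. The share of Fmo1 was 13.8% and 19.4% by transcript length, or 6.90% and 9.98% by coding length. Fmo2 held 0.206% and 0.589%, and Fmo4 0.142% and 0.279%, by transcript length. Among the aldehyde oxidases the share of Aox1 was 12.2% in the control and 24.1% in the LKO-labelled library, with nearly the same values by coding length. The summed Fmo level was 1913 and 1729 CPM, a log2 ratio of −0.15 that became 0.27 with total-count scaling. The summed Aox level was 254 and 147 CPM, a log2 ratio of −0.79 (−0.37 with total-count scaling).

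**Figure D4:**
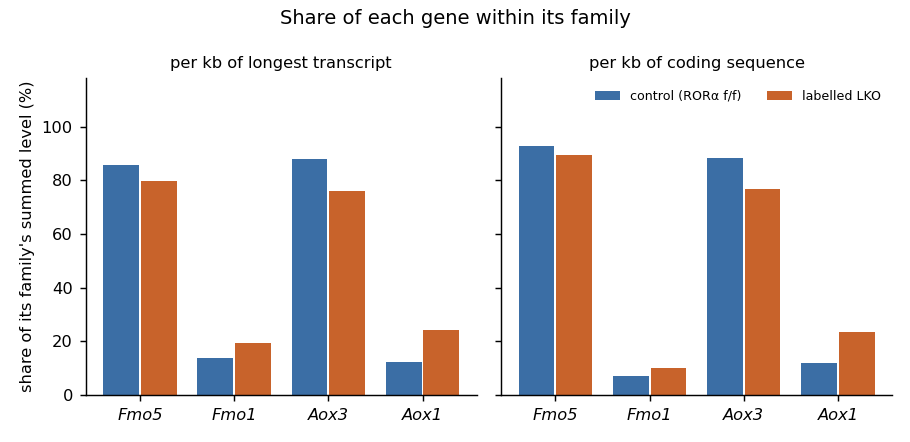
Share of Fmo5 and Fmo1 in the summed level of the 4 Fmo members, and of Aox3 and Aox1 in that of the 2 Aox members, in percent, for the control library (blue) and the LKO-labelled library (orange). Levels are per kb of the longest transcript on the left and per kb of coding sequence on the right. On both scales Fmo1 and Aox1 hold larger shares in the LKO-labelled library.

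Fmo6, Fmo9, Aox2 and Aox4, family genes outside the members, were all at or below the floor of 3 counts, so no fold is given. Fmo6 had 1 count in the control and 0 in the LKO-labelled library. A count of 0 there allows up to 0.0197 CPM, and in the control 3 counts equal 0.0271 CPM. Aox2 had 2 and 1 counts, and Fmo9 and Aox4 had 0 in both.

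Genes with sex-biased expression in liver are given beside the members because aldehyde oxidase activity differs between the sexes. Of 18 male-biased genes, all measured, 16 passed 1.5-fold downward and 0 upward, and the median log2 ratio was −2.01. Of 19 female-biased genes 14 were measured, of which 9 passed 1.5-fold upward in the LKO-labelled library and 0 downward. Their median log2 ratio was 0.80. The filter admits genes near 0 in the control through the LKO-labelled library, which tilts the second count. Aox3 was lower, as were most genes of the male-biased list, and Aox1 was not. Any link between these lists and the difference of Aox3 was not tested.

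The members outside chromosome 3 form a pair of clusters on chromosome 1. Fmo4 (chr1:162793188-162813972), Fmo1 (chr1:162829561-162866610) and Fmo2 (chr1:162874317-162898726) lie within 106 kb on the minus strand, with Fmo6 beyond Fmo2. Aox1 (chr1:58029931-58106413) and Aox3 (chr1:58113130-58200698) lie 6.72 kb apart on the plus strand, with Aox4 and Aox2 beyond Aox3. All 6 members are annotated as protein coding, with 9 or 10 exons in the longest transcript of the Fmo genes and 35 in that of either Aox gene. The values are totals over all exons. Within 250 kb of the members there were 13 measured genes of other families. Their log2 ratios ran from −0.70 to 0.50, and 1 of them, Mettl13, was past 1.5-fold, though not with total-count scaling. Fmo2 and Fmo4 lay above this range and Aox3 below it. Prrc2c, the nearest measured gene beyond Fmo4, had a log2 ratio of 0.50, close to that of Fmo1. No neighbour had a count difference within 5% of that of a member. Among multiples below 10, the differences of Fmo2 and Prrc2c were 3.86 and 6.17 times that of Fmo4. The difference of Aox3 was −3.92 times that of Aox1, with raw counts lower for Aox3 and higher for Aox1. Each multiple was within 5% of a whole number. That window widens with the number, so at multiples of this size many unrelated values would also pass. The longest transcripts of Fmo2, Fmo4, Aox1 and Aox3 shared no stretch of 50 bases with a transcript of any other gene. The longest shared coding run was 22 bases for Fmo2 and Fmo4, and 20 for Aox1 and Aox3. Whether the reads themselves were shared was not tested. The only annotated gene that overlaps a member is a small nucleolar RNA inside Aox3, which is not a row of the files.

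**Figure D5:**
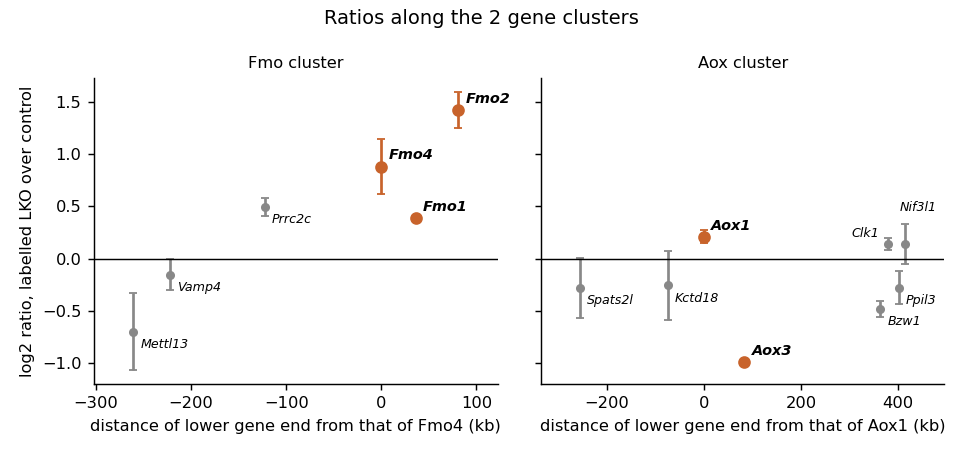
Log2 ratio, LKO-labelled over control, with 95% counting intervals, against distance in kb from the lower-coordinate end of Fmo4 (left) or Aox1 (right), for members (orange) and measured genes within 250 kb of them (grey). Fmo4, Fmo1 and Fmo2 are all above 0, at 0.88, 0.39 and 1.42. Aox1 and Aox3 sit at 0.21 and −0.99 beside each other.

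Promoter sequence is shown for the neighbours with opposite differences, Aox1 and Aox3, and for Fmo2 and Fmo4, the members with the largest higher ratios. Each run is the 250 bases before a RefSeq transcription start (GRCm38.p6), read 5′ to 3′ on the strand of the gene, with capitals at matches of the motifs searched. These were TAGGTCA and TGGGTCA, cores of the site bound by ROR receptors, AGGTCA, the nuclear receptor hexamer that the first of them contains, TGACNNNGC, the core of the antioxidant response element, and GCGTG, the core bound by the AHR receptor. Both strands were searched in windows that also take in the 50 bases after the start. The runs are Aox1 at chr1:58029719-58029968 and Aox3 at chr1:58112886-58113135 on the plus strand, and Fmo4 at chr1:162812550-162812799 and Fmo2 at chr1:162898494-162898743 on the minus strand.
Aox1: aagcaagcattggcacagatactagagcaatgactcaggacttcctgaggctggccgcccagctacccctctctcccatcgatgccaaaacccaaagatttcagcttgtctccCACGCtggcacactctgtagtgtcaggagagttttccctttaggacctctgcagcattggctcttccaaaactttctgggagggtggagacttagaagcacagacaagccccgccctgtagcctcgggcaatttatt
Aox3: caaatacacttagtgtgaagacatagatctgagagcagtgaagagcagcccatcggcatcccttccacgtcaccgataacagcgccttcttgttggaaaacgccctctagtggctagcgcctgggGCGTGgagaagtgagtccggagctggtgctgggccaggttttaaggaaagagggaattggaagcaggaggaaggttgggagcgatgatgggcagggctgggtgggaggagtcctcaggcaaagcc
Fmo4: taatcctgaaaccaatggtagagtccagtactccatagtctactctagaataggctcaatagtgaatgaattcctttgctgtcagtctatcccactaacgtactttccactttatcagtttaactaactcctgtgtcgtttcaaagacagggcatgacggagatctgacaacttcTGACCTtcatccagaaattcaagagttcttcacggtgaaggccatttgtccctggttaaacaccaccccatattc
Fmo2: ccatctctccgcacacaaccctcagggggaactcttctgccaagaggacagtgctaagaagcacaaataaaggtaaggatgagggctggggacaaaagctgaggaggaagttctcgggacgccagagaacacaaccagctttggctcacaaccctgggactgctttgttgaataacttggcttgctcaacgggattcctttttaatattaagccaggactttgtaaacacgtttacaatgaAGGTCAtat
RefSeq windows were found for 5 of the 6 members, 2 of them for Fmo2, and Fmo1 had none. TAGGTCA and TGGGTCA occurred in none of these windows, against 2.61% and 3.98% of all 32851 promoter windows. AGGTCA occurred in that of Fmo4, from 75 bases before the start on the opposite strand, and in the shown window of Fmo2, from 9 bases before the start. It occurred in 16.3% of all windows. GCGTG occurred once in the window of Aox1 and once in that of Aox3, and in 32.4% of all windows. TGACNNNGC occurred in no member window and in 12.4% of all. Neither the Fmo5 window nor the other Fmo2 window held any of the motifs. These are matches of letters in a short window and do not show binding.

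Among the enzymes that share the molybdenum cofactor with the aldehyde oxidases, none of 4 measured genes was past 1.5-fold in either direction, and their median log2 ratio was −0.01. Xdh, which encodes xanthine oxidoreductase, the closest relative of the aldehyde oxidases in this list, stood at 70.3 CPM in the control and 70.4 CPM in the LKO-labelled library. Suox, the sulfite oxidase gene, had a log2 ratio of 0.20, and the amidoxime-reducing genes Marc1 and Marc2 had −0.03 and −0.04. Of 5 measured genes of molybdenum cofactor synthesis, 1 was past 1.5-fold, downward, and the median was −0.06. That gene was Mocs2, which encodes the subunits of molybdopterin synthase, at 54.2 and 33.6 CPM, 1.61-fold lower (interval 1.55 to 1.67). With total-count scaling the log2 ratio of Mocs2 was −0.27, short of 1.5-fold. With total-count scaling Xdh, Suox, Marc1 and Marc2 all lay above 0, since that scaling adds 0.42 to every log2 ratio, and Suox at 0.62 and the cofactor gene Gphn at 0.61 then passed 1.5-fold upward.

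Genes of aldehyde oxidase substrates were few. Nnmt, which methylates nicotinamide to a substrate of aldehyde oxidase, stood at 38.4 CPM in the control and 4.09 CPM in the LKO-labelled library, 9.41-fold lower (interval 8.65 to 10.3). This was a larger difference than that of Aox3 itself. The other 2 measured genes of this list, of vitamin B6 metabolism, were within 1.5-fold.

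For genes of the flavin monooxygenase cofactors, and for a separate list of microsomal electron supply, the picture was mixed. Of 8 genes that regenerate NADPH, all measured, 3 passed 1.5-fold upward and 1 downward. Their median log2 ratio was −0.03. Me1, the malic enzyme gene, was 2.55-fold higher (interval 2.53 to 2.58), and Pgd and Idh2 were 1.61-fold and 1.52-fold higher. Nnt, the mitochondrial transhydrogenase gene, was 2.19-fold lower (interval 2.13 to 2.26). Of 4 measured genes of riboflavin uptake and FAD synthesis, only Slc25a32, a mitochondrial carrier gene, was past 1.5-fold, at 1.69-fold higher. Among 4 genes of microsomal electron supply, Por, the reductase of the cytochromes P450, was 1.73-fold higher and the rest within 1.5-fold. With total-count scaling Cyb5r3 and Cyb5b of this list and Rfk of the riboflavin list also passed 1.5-fold upward, at log2 ratios of 0.97, 0.70 and 0.70.

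Of 18 measured transcription factor genes known from drug metabolism, 4 passed 1.5-fold upward and 1 downward, around a median log2 ratio of 0.36. With total-count scaling 12 passed upward and the same number, 1, downward. The 3 highest were Foxa2 at 2.05-fold, Nr1i3, the gene of the receptor CAR, at 1.96-fold, and Cebpb at 1.84-fold. Bcl6, a repressor gene with male-biased expression in liver, stood at 37.2 and 7.21 CPM, 5.16-fold lower (interval 4.82 to 5.52). Rora was within 1.5-fold at a log2 ratio of −0.47.

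Markers of other liver cells also differed between the libraries. In bulk liver, fewer cells of a type and less RNA per cell cannot be told apart. Of 10 stellate cell and fibroblast markers, 6 passed 1.5-fold upward and 0 downward, and with total-count scaling 9 passed upward. The summed level of all 10 was 209 CPM in the control and 303 CPM in the LKO-labelled library. Most of these sums came from Dcn, at 158 and 210 CPM, which was within 1.5-fold with TMM scaling. Of 7 Kupffer cell markers 6 were measured, and all 6 of these were lower, with sums of 103 and 58.1 CPM. All 6 were past 1.5-fold with TMM scaling and only 1, Timd4, with total-count scaling, where the list median moved from −0.87 to −0.45. Of 10 hepatocyte markers, 2 passed 1.5-fold downward and 0 upward. The list median was −0.37 on the log2 scale, and Alb, the defining marker, stood at 117952 and 91007 CPM. With total-count scaling the median was 0.05, Alb had a log2 ratio of 0.05, and neither of the 2 passed 1.5-fold, so the direction of this list rests on the scaling. All 8 endothelial markers were within 1.5-fold, with sums of 338 and 433 CPM, and 4 passed it upward with total-count scaling. Eng made up 185 and 265 CPM of these sums. Of 6 cholangiocyte markers 2 were measured, with Cftr at 0 counts in both libraries, and of 6 lymphocyte markers 1 was measured. Their sums were 56.5 and 44.4 CPM for cholangiocytes, and 8.58 and 7.05 CPM for lymphocytes. The low-level genes Fmo2 and Fmo4 were at least 1.5-fold higher with TMM scaling, as were 6 of the 10 stellate cell and fibroblast markers. The other 4 were within 1.5-fold, among them the stellate cell marker Lrat at a log2 ratio of −0.18. The part of any cell type in the differences of Fmo2 and Fmo4 was not tested.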

How the data were processed

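Liver RNA, 500 ng per library, was sequenced with a LEXOGEN mRNA-Seq kit, per the labels' protocols. The authors deposited raw read counts per gene symbol, 1 file per library. TopHat and edgeR with build mm10 are named in the submitters' processing notes, without roles. The counter, annotation, strand use and treatment of multiply aligned reads are, in the sources used here, not given. For genes of 1 to 49 counts with 1 curated RefSeq transcript, 56.3% (control) and 52.3% (LKO-labelled) of values were even, and with 2 transcripts 69.6% and 67.7%. Some reads may thus be counted more than once, and intervals are then too narrow.

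TMM factors came from edgeR 4.0.16 in R 4.3.3. Ratios carry 95% Clopper-Pearson intervals conditional on both counts (scipy 1.17.1). Differences between pairs of members use a normal approximation on the log scale. As PCR copies repeat molecules, both intervals and floors reflect counting error alone. With 1 library per group no p-value was computed. The calculation was tested on simulated Poisson counts, which hold neither repeated reads nor spread between animals. Members, lists and markers were chosen with earlier results of these data known. All members, Rora, the other family genes and the other molybdenum enzymes were named. From the remaining enzyme, cofactor and transcription factor lists, up to 3 genes each way past 1.5-fold were named by rank. The sex-biased and cell type lists are given by counts. Genes named for total-count scaling, and Alb, Dcn, Eng, Lrat and Cftr, were chosen after their values were seen. Some items are not reported here. Neighbouring genes were named by position after their values were seen. Coordinates and lengths are from GENCODE M21 (GRCm38), promoters from RefSeq (GRCm38.p6).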

Additional observations from a re-analysis of the deposited data

How the results depend on the processing

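No paired analysis was possible because each genotype has 1 library. Fmo1, Fmo2, Fmo4 and Aox1 stayed higher and Aox3 lower under every scaling, added count and length or GC correction run, and only Fmo5 changed sign. With total-count scaling, 4 members passed 1.5-fold upward, 0 downward, and 2 passed 2-fold upward. Over all genes that scaling gave 3866 higher and 282 lower at 1.5-fold, and 1211 and 120 at 2-fold, against 1169, 1087, 426 and 292 with TMM. Without Mup genes in the totals, 2 members were at least 2-fold higher, with 2144 and 647 genes at 1.5-fold and 684 higher at 2-fold. Without the 20 most abundant genes, 1978 genes were higher at 1.5-fold and 689 at 2-fold. With upper-quartile scaling, or with a length and GC trend removed (96.4% of measured genes had both values), 1 member, Aox3, was at least 2-fold lower. With no filter, 2389 and 2111 genes were past 1.5-fold and 1362 and 1063 past 2-fold. At a mean CPM of 10 or more these were 431, 486, 153 and 125, and 0 members were higher at either fold, because Fmo2 and Fmo4 lie under that filter. Levels relative to Fmo5 moved with coding length, an alternative chosen after seeing the data. Depth limits Fmo4 most, and the family genes at or below 3 counts could not be read.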
